A study of Mus musculus with 4 samples.

Results

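Notch signalling in lung smooth muscle cells (SMCs) was described by 10 genes: the receptors *Notch1*, *Notch2*, *Notch3* and *Notch4*, the ligands *Jag1* and *Dll4*, and the target genes *Hey1*, *Hey2*, *Heyl* and *Hes1*. The genes were taken by name from an RNA-seq table of 21462 genes. Each of the 10 had a mean of at least 10 normalized counts and was among the 16659 genes tested.

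Notch receptors are single-pass membrane proteins that are activated by Jagged and Delta-like ligands on a neighbouring cell. Ligand binding leads to cleavage by ADAM proteases and then by γ-secretase, and the released intracellular domain enters the nucleus, where it joins the DNA-binding protein RBPJ and Mastermind coactivators at target genes. In blood vessels *Notch3* is the receptor best known from SMCs and pericytes, *Notch4* and *Dll4* are known mainly from endothelium, and JAG1 carried by endothelial cells signals to the muscle layer around them. HEY and HES proteins are transcriptional repressors that form the most direct output of the pathway.

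The SMCs came from lungs of C57BL/6 mice. They carried a red fluorescent reporter, *ROSA26* tdTomato, switched on by a tamoxifen-inducible Cre recombinase under the α-smooth muscle actin promoter (α-SMA ERT2Cre2), which is active in airway and vascular smooth muscle alike and in other contractile cells. Tet3 mutant animals (labelled Mut, n = 2 libraries) carried floxed *Tet3*, which encodes an enzyme that oxidizes 5-methylcytosine in DNA. Control animals (labelled WT, n = 2 libraries) lacked the floxed allele and, by the study's methods, carried the Cre transgene and/or the reporter, and whether they received tamoxifen is not stated for these libraries. By the study's methods, CD45 and Ter-119 beads were used to remove blood cells, and DAPI-negative tdTomato+ cells were sorted. The labels give no age, sex or batch for these libraries.

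The libraries held an estimated 6.32 M to 7.56 M reads assigned to genes. *Tet3* itself, the check of the labels, had 1847 and 1926 normalized counts in controls 1 and 2 against 1534 and 1444 in mutants 1 and 2, a log2 fold change of -0.34 ± 0.10 (SE, limma unadjusted p = 0.0185, adjusted p = 0.681). This check is weak. By p *Tet3* was at rank 324 of all genes tested, and both mutants lay below both controls in 19.5% of all genes. Control 2 stood apart from the other libraries: among 10888 genes with a mean of at least 100, 387 differed more than 2-fold from all 3 others, against 9 to 72 genes for each of the other libraries. Its X-linked *Xist* value was 2, against 5214 to 6781 elsewhere, and its Y-linked *Ddx3y* value was 774, against 0 elsewhere. By these genes the RNA of control 2 was male and that of the other libraries female. Sex thus differed within the control pair and was not balanced between groups. Without control 2, all libraries left were female by these genes. Without control 1, the control left was male and both mutants were female. In values without control 1, sex and genotype therefore cannot be told apart. The part of sex in the distance between the controls, and in values without control 1 or without control 2, was not tested. Among the 10 Notch genes, control 1 was the highest or lowest library for 6, control 2 for 5, mutant 1 for 6 and mutant 2 for 3. Fold changes turned direction in 4 of the 10 without control 2, against 0 without control 1, 1 without mutant 1 and 0 without mutant 2. Values without control 2 are given beside each gene because of its position over all genes. Markers of cell types other than SMCs were present in all libraries. The median level of the 10 smooth muscle markers was 203.6 normalized counts per kb of exon. Medians above it were found for the alveolar type 2 (618.2 per kb), fibroblast (318), club cell (271.3), endothelial (253.9) and macrophage (241.8) markers. The pericyte, arterial, ciliated cell and T cell medians lay below it. By these markers the RNA was not of SMCs alone. No marker in any of the 10 marker lists was at 0 in any library. In such bulk RNA, fewer cells of a type and less RNA per cell cannot be told apart.

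Across the 16659 genes, 0 had a limma adjusted p under 0.05 (0% of genes tested), and the smallest adjusted p was 0.0902. This holds for limma on rounded normalized values. The study used DESeq2 instead and reported differentially expressed genes at a Benjamini-Hochberg threshold of 0.05. The count at an unadjusted p under 0.05 was 1112 genes, or 6.68% of genes tested. None of the 10 Notch genes was in either count. Both mutants lay beyond both controls in 5 of the 10 Notch genes, against 39.0% of all genes tested. In 3 Notch genes the mutants lay above the controls (19.6% of all genes) and in 2 below (19.5% of all genes). The shares of the Notch genes were thus near those of the whole table. The median log2 fold change of the 10 genes was 0.08, against -0.0069 for all genes tested, and 6 of the 10 were above 0, against 48.96% of all genes. An exact permutation test of 2 against 2 libraries cannot go below p = 0.333, so single genes were tested with limma alone, which pools information on the spread over all genes.

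**Figure D1:**
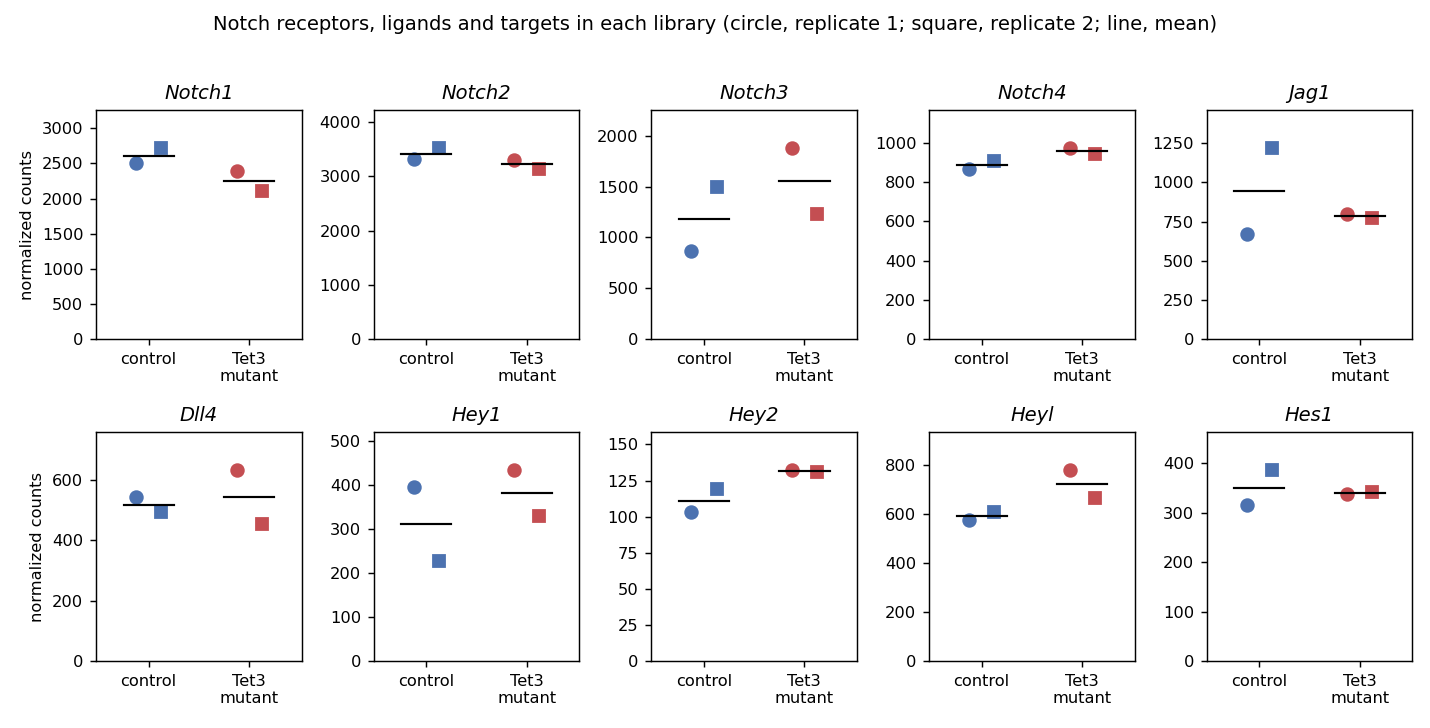
Normalized counts (vertical axes, each starting at 0) of the 10 Notch genes in control libraries (blue) and Tet3 mutant libraries (red), with circles for replicate 1, squares for replicate 2 and lines for the group mean. The groups do not overlap for *Notch1* and *Notch2*, which were lower in both mutants, or for *Notch4*, *Hey2* and *Heyl*, which were higher in both, while the control libraries lie far apart for *Notch3*, *Jag1* and *Hey1*.

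On a scale that allows genes to be compared, normalized counts per kb of exon, *Notch2* had the highest mean level of the 10 genes at 307.9 per kb, and its lowest library (290.9 per kb) was above every library of the other 9 genes. *Hey2* had the lowest mean level at 26.4 per kb, and its highest library (28.7 per kb) was below every library of the others. The 8 genes between them followed in the order *Notch1* (170.4 per kb), *Hes1*, *Notch3* (169.1), *Jag1* (148.4), *Dll4* (137.5), *Heyl* (128.7), *Notch4* (114.5) and *Hey1* (106.1). Neighbours among these 8 overlapped in their range over the 4 libraries, so their order was not resolved. *Notch3* moved most in this order, from rank 9 of 10 in control 1 to rank 5 in control 2, rank 2 in mutant 1 and rank 3 in mutant 2. Among all genes tested, the mean level per kb of *Notch2* was at the 96.8th percentile, that of *Notch3* at the 87.2nd and that of *Hey2* at the 30.4th.

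Promoter sequence was read as a property that the choice of genes did not use. TET enzymes act on methylated cytosine in CG dinucleotides, so CG was counted in windows of 300 bases, from 250 before to 50 after the RefSeq start of each gene on GRCm38.p6. For *Notch1* this start was 26503822, inside the gene as given below (26457903 to 26516663, reverse strand). Its window is therefore not at the outer end of that gene. Windows were found for 7 of the 10 genes. There was no entry for *Hey1*, *Heyl* and *Hes1*. *Notch2* had the most CG dinucleotides, 41 in its window, more than 96.5% of the 32851 windows in the table. *Notch4* had the fewest, 5, more than 38.0% of windows. The others had 29 (*Hey2*), 25 (*Notch3*), 23 (*Notch1*), 22 (*Jag1*) and 17 (*Dll4*), against a median of 7 over all windows. The 250 bases before the start of both extremes are shown 5′ to 3′ on the strand of the gene (forward for both) with each CG in capitals. The first holds 34 CG and the second 4.
Notch2, chr3:98013288-98013537: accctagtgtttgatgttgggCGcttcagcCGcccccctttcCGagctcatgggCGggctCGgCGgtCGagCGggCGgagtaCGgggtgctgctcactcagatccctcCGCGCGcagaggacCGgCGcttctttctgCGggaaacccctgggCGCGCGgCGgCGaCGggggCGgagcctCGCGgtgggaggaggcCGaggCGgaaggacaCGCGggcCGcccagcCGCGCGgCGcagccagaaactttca
Notch4, chr17:34564045-34564294: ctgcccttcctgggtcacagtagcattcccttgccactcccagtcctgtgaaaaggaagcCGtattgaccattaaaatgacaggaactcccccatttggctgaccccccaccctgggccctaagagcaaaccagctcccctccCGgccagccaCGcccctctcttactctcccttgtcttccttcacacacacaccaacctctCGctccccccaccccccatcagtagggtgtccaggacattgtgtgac

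The RBPJ core motif, TGGGAA, was searched for on both strands. It occurred in 25.6% of all windows and in 1 of the 7 windows of the Notch genes, that of the target *Hey2*, with 2 matches. The first, on the other strand, began 207 bases before the start, and the second began 3 bases before it and spanned it. The sequence of *Hey2* (reverse strand) is shown with both matches in capitals because it is the only target with a window.
Hey2, chr10:30842781-30843033: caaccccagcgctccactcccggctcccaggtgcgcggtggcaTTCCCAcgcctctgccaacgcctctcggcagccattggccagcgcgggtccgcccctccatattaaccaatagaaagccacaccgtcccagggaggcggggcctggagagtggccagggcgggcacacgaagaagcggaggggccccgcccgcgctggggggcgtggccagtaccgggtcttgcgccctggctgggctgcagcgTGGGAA

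The N box, CACNAG, a site of HES proteins that was also searched on both strands, occurred in 42.5% of all windows and in those of *Notch1* (3 matches, 2 of them overlapping), *Notch3* (2 matches), *Notch2* (1) and *Dll4* (1). The E box CACGTG, a site of HEY proteins, occurred in 7.15% of all windows and in none of the 7. A match is a description of letters in these windows and not a measured site.

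*Notch1* (ENSMUSG00000026923, chromosome 2, 26457903 to 26516663, reverse strand, GRCm38) encodes a receptor used in many tissues, endothelium included. It had 2499 and 2714 normalized counts in controls 1 and 2 against 2385 and 2104 in mutants 1 and 2. Both mutant libraries were below both controls, with mutant 1 close to control 1. The means were 2606 ± 152 in controls against 2244 ± 198.7 in mutants (SD, n = 2 each). The log2 fold change was -0.22 ± 0.12 (standard error of the limma fit), with a 95% interval from -0.51 to 0.080 (limma unadjusted p = 0.119, adjusted p = 0.689). Leaving out each library in turn gave values from -0.31 to -0.13, with -0.16 without control 2. Of the 14232 exon bases of *Notch1*, 7.50% are shared with the opposite-strand gene *0610009E02Rik* and 2.91% with *Gm13568*, and these 2 genes had values of 4 to 12, so their own reads were few beside those of *Notch1*.

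*Notch2* (ENSMUSG00000027878, chromosome 3, 98013527 to 98150361, forward strand) encodes the receptor of highest level here and has the promoter window richest in CG. Its normalized counts were 3316 and 3519 in controls against 3308 and 3136 in mutants. The mutants were below the controls, but mutant 1 and control 1 differed by only 8 normalized counts. Mutant over control, the fold change on the log2 scale was -0.08 ± 0.10 (SE), with a 95% interval from -0.35 to 0.18 (limma adjusted p = 0.828), and it was -0.04 without control 2. The same-strand gene *Gm42820*, which shares 5.02% of the exon bases of *Notch2*, had 69 and 101 normalized counts in controls against 89 and 36 in mutants.

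*Notch3* (ENSMUSG00000038146, chromosome 17, 32120820 to 32166852, reverse strand), the receptor known from vascular SMCs and pericytes, was the most variable of the receptors. It had 866 and 1500 normalized counts in controls against 1875 and 1231 in mutants. The groups overlapped: control 2 was above mutant 2, and the library of the lowest value was control 1. The means were 1183 ± 448.3 in controls against 1553 ± 455.4 in mutants (SD, n = 2 each). This gave a log2 fold change of 0.41 ± 0.33 (SE), with a 95% interval from -0.42 to 1.25 (limma adjusted p = 0.739). It was 0.81 without control 2 and 0.018 without control 1, so that its size rested on which control was kept, and it was 0.11 without mutant 1 and 0.72 without mutant 2. The distance between the controls alone was 0.79 on the log2 scale, larger than the fold change between groups. The antisense gene *Gm17276* shares 6.03% of the exon bases of *Notch3* and had values of 8 to 12.

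*Notch4* (ENSMUSG00000015468, chromosome 17, 34564268 to 34588503, forward strand), a receptor known mainly from endothelial cells and the gene with the fewest CG in its promoter window, was the most even of the receptors. Its normalized counts were 868 and 906 in controls against 972 and 944 in mutants. Both mutants were above both controls, and the libraries within each group were close. The means were 887 ± 26.9 in controls against 958 ± 19.8 in mutants (SD, n = 2 each). The log2 fold change was 0.11 ± 0.10 (standard error of the limma fit), with a 95% interval from -0.15 to 0.37 (limma adjusted p = 0.770), and it was 0.14 without control 2.

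Within each library, the make-up of the receptor family was read as the share of each receptor in their summed level per kb. *Notch2* took the largest share in every library, from 37.1% to 44.1%. *Notch1* took 25.2% and 23.4% in controls 1 and 2 against 20.3% and 20.9% in mutants 1 and 2. The mutants were lower for *Notch1* without overlap. *Notch3* took 15.3%, 22.8%, 28.0% and 21.5% in the same order, and the groups overlapped. *Notch4* took 13.8% to 16.5%, also with overlap. The ratio of *Notch4* to *Notch1* per kb was 0.613 and 0.589 in controls against 0.720 and 0.792 in mutants, without overlap. The ratio of *Notch3* to *Notch1* per kb was 0.610 and 0.972 in controls against 1.38 and 1.03 in mutants, and it was likewise higher in both mutants. These ratios were chosen after the values were seen and were not tested.

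**Figure D2:**
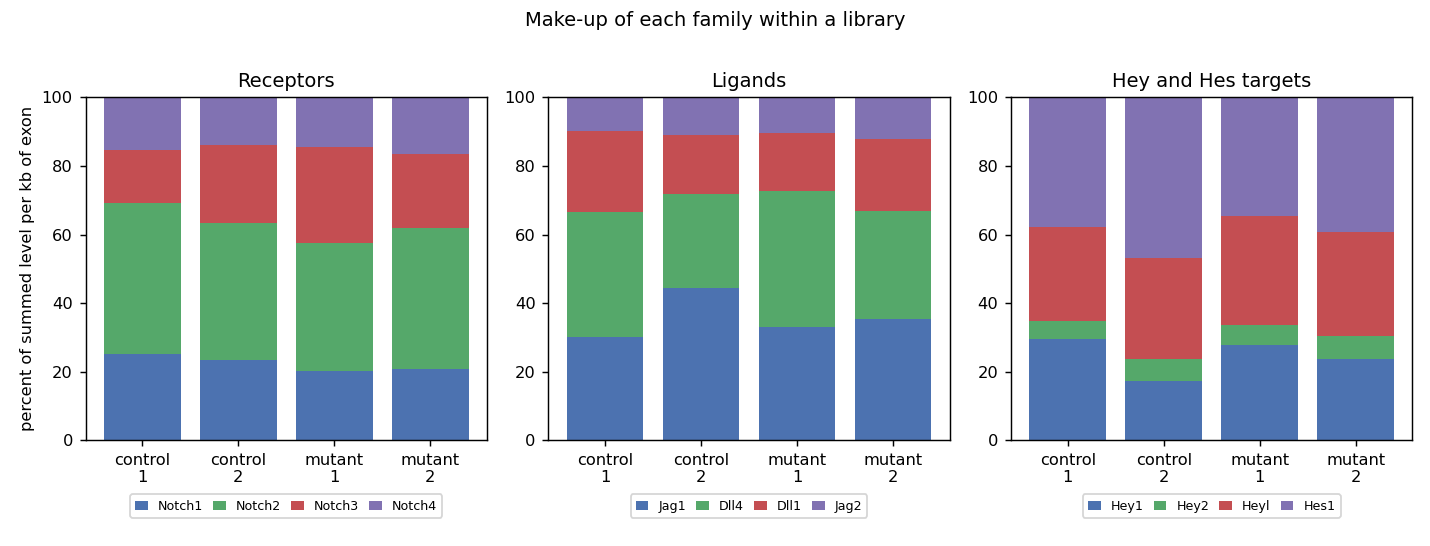
Share of each gene in the summed level per kb of exon of its family (percent, stacked to 100) in each of the 4 libraries, for the receptors, the ligands *Jag1*, *Dll4*, *Dll1* and *Jag2*, and the Hey and Hes targets. *Notch2* has the largest receptor share in each library (37.1% to 44.1%), and *Hey2* has the smallest target share in each (5.45% to 6.67%).

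*Jag1* (ENSMUSG00000027276, chromosome 2, 137081456 to 137116644, reverse strand) encodes a Jagged ligand that endothelial cells present to SMCs and that SMCs also make. It had 672 and 1217 normalized counts in controls against 799 and 772 in mutants. The mutants were close to each other and lay between the controls. The means were 944.5 ± 385.4 in controls against 785.5 ± 19.1 in mutants (SD, n = 2 each). Mutant over control, the fold change on the log2 scale was -0.20 ± 0.29 (SE), with a 95% interval from -0.94 to 0.53 (limma adjusted p = 0.858). Its direction depended on the control kept: it was -0.63 without control 1 (limma unadjusted p = 0.00539, adjusted p = 0.205) and 0.22 without control 2. In the fit without control 1, an unadjusted p under 0.05 was reached by 20.2% of all genes.

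*Dll4* (ENSMUSG00000027314, chromosome 2, 119325784 to 119335962, forward strand) encodes a Delta-like ligand of arterial and sprouting endothelium. It had 542 and 492 normalized counts in controls against 630 and 455 in mutants. The highest and the lowest library were both mutants, so the groups overlapped. This gave a log2 fold change of 0.05 ± 0.19 (SE), with a 95% interval from -0.43 to 0.53 (limma adjusted p = 0.950). It was -0.02 without control 2, -0.18 without mutant 1 and 0.29 without mutant 2. The opposite-strand gene *Gm14207* shares 5.56% of the exon bases of *Dll4* and had values of 14 to 26.

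Among the ligands *Jag1*, *Dll4*, *Dll1* and *Jag2*, *Jag1* took 30.0% and 44.5% of the summed level per kb in controls against 33.1% and 35.3% in mutants. *Dll4* took 36.6% and 27.2% in controls against 39.5% and 31.5% in mutants. The leading ligand was therefore *Dll4* in control 1 and mutant 1 and *Jag1* in control 2 and mutant 2, while *Dll1* was the third and *Jag2* the last in all 4 libraries. The ratio of *Jag1* to *Notch3* per kb was 1.08 and 1.13 in controls against 0.592 and 0.871 in mutants. This ratio was lower in both mutants, although each of its genes overlapped between groups, and it was not tested.

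*Hey1* (ENSMUSG00000040289, chromosome 3, 8663359 to 8667256, reverse strand) encodes a HEY repressor that is induced directly by Notch. It had 395 and 228 normalized counts in controls against 433 and 330 in mutants. Control 2 was the lowest library, and mutant 2 lay below control 1. The means were 311.5 ± 118.1 in controls against 381.5 ± 72.8 in mutants (SD, n = 2 each). The log2 fold change was 0.33 ± 0.30 (standard error of the limma fit), with a 95% interval from -0.45 to 1.11 (limma adjusted p = 0.770). It was -0.06 without control 2 and 0.73 without control 1.

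*Hey2* (ENSMUSG00000019789, chromosome 10, 30832359 to 30842801, reverse strand) encodes the HEY protein known from arterial vessels and heart. It was the least abundant of the 10 genes. Of the 7 windows only that of *Hey2* held the RBPJ core motif, but no other target had a window to search. Its normalized counts were 103 and 119 in controls against 132 and 131 in mutants. The mutants differed by 1 normalized count and lay above both controls. The lowest library, control 1, corresponded to an estimated 107.2 reads, and the 95% Poisson interval of its value, which covers counting error only, ran from 84.4 to 124.4 normalized counts. Mutant over control, the fold change on the log2 scale was 0.25 ± 0.20 (SE), with a 95% interval from -0.27 to 0.76 (limma adjusted p = 0.745), and it was 0.35 without control 2.

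*Heyl* (ENSMUSG00000032744, chromosome 4, 123233556 to 123249875, forward strand) encodes the third HEY protein, known from SMCs and pericytes. It had 576 and 610 normalized counts in controls against 779 and 667 in mutants. Both mutants lay above both controls. The means were 593 ± 24 in controls against 723 ± 79.2 in mutants (SD, n = 2 each). This gave a log2 fold change of 0.28 ± 0.13 (SE), with a 95% interval from -0.05 to 0.61. It had the smallest p of the 10 genes, a limma unadjusted p of 0.0792, with an adjusted p of 0.681. Leaving out each library in turn gave values from 0.17 to 0.39, with 0.32 without control 2, and scaling the libraries to equal totals gave 0.33 with a limma unadjusted p of 0.0452 and an adjusted p of 0.661.

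*Hes1* (ENSMUSG00000022528, chromosome 16, 30064384 to 30067796, forward strand) encodes a HES repressor that responds to Notch and to other signals. It had 316 and 385 normalized counts in controls against 338 and 341 in mutants. The mutants lay between the controls. The log2 fold change was -0.04 ± 0.15 (standard error of the limma fit), with a 95% interval from -0.43 to 0.35 (limma adjusted p = 0.955). It was 0.10 without control 2 and -0.18 without control 1.

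Within the target family, *Hes1* had the largest share of the summed level per kb in each library, 37.7% and 46.8% in controls against 34.6% and 39.2% in mutants. *Heyl* took 27.4% and 29.5% in controls against 31.8% and 30.5% in mutants, which was higher in both mutants. The ratio of *Heyl* to *Hes1* per kb was 0.726 and 0.631 in controls against 0.918 and 0.779 in mutants, without overlap. The ratio of *Heyl* to *Hey1*, by contrast, was 0.931 and 1.71 in controls against 1.15 and 1.29 in mutants, with both mutants between the controls. Groups also overlapped for the ratios of *Dll4* to *Jag1*, *Heyl* to *Notch3*, *Dll4* to *Notch1* and *Hey1* to *Dll4*. The same held for *Notch3* to the pericyte marker *Pdgfrb*. No ratio was tested, and the share of ratios without overlap among other gene pairs was not computed.

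**Figure D3:**
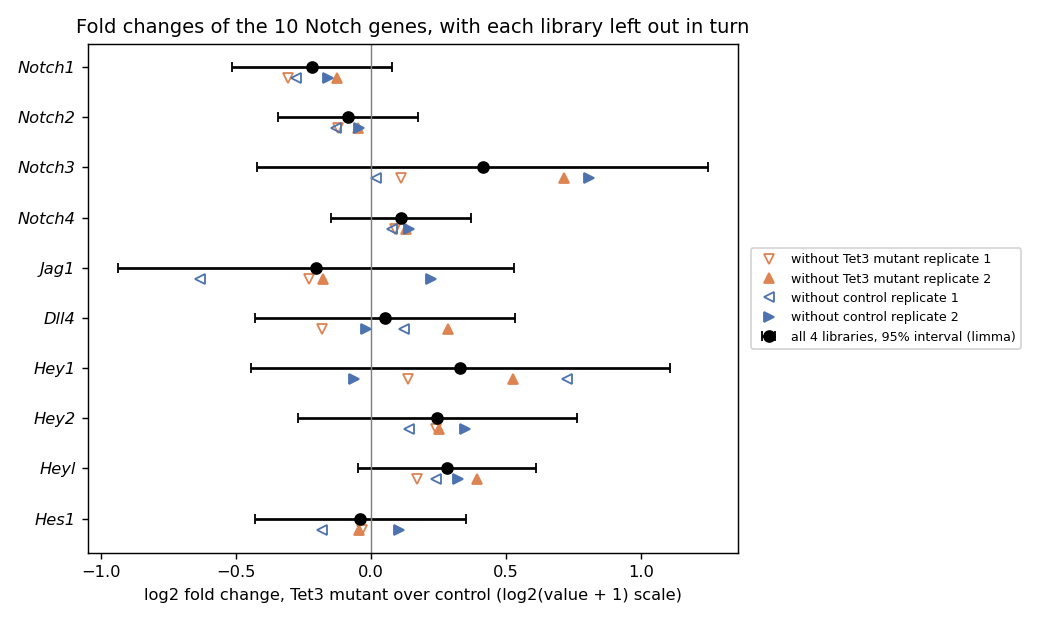
Log2 fold change, Tet3 mutant over control, of each Notch gene from all 4 libraries (black points, with 95% intervals from limma) and with each library left out in turn (triangles). All 10 intervals include 0, and *Jag1*, *Dll4*, *Hey1* and *Hes1* change sign without control 2.

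The distance between libraries of a group set what could be seen. The log2 distance between replicates exceeded the absolute fold change between groups for 6 of the 10 genes, namely *Notch2*, *Notch3*, *Jag1*, *Dll4*, *Hey1* and *Hes1*. In the control pair it did so for 6 genes and in the mutant pair for 3. For the most variable genes this distance was larger than counting error. The squared difference of a pair divided by its sum has a mean of about 1 under counting noise alone. In the control pair it was 169.9 for *Notch3*, 157.2 for *Jag1* and 44.8 for *Hey1*. The same index was 0.81 for *Notch4* and 0.97 for *Heyl* in the control pair, close to counting noise. In the mutant pair it was 133.5 for *Notch3*, 28.2 for *Dll4*, 17.6 for *Notch1* and 8.68 for *Heyl*, so that the mutants of *Heyl* lay further apart than its controls. The median of the index over the 10888 genes with a mean of at least 100 was 4.48 in the control pair and 1.75 in the mutant pair. Under counting noise alone the median lies below the mean, so these medians are not to be read against 1.

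Marker genes of the cells in which Notch components are known also differed between libraries. The summed normalized counts of the 10 smooth muscle markers were 7250 and 8708 in controls against 10201 and 9617 in mutants. The 7 pericyte markers summed to 3712 and 3344 in controls against 4657 and 4402 in mutants. Both sums were higher in both mutants. All 10 smooth muscle markers and 6 of 7 pericyte markers had fold changes above 0, with 0 of either list past the adjusted threshold in limma. The 12 endothelial markers summed to 17086 and 16701 in controls against 18310 and 17714 in mutants, with 10 of 12 above 0, and the 6 arterial markers to 3570 and 2790 in controls against 3491 and 3434 in mutants, with 5 of 6 above 0. The 8 alveolar type 2 markers were all below 0, with sums of 14928 and 22359 in controls against 10571 and 13545 in mutants. Fold changes above 0 were also found for 6 of 7 fibroblast, 7 of 8 macrophage, 8 of 8 T cell, 4 of 5 club cell and 6 of 6 ciliated cell markers. Direction or size rested on control 2 for several lists. Without it the median log2 fold change turned direction for club cells (0.18 to -0.27) and endothelium (0.087 to -0.0026). The direction was kept but the median came closer to 0 for T cells (1.16 to 0.17), fibroblasts (0.21 to 0.029) and the arterial list (0.37 to 0.049). The same held for macrophages (0.40 to 0.25) and alveolar type 2 cells (-0.60 to -0.32). For smooth muscle it was 0.73 without control 2 (0.46 with all libraries, 0.21 without control 1). For pericytes it was 0.51 (0.49 with all libraries) and for ciliated cells 0.87 (0.79). The part of these sums in the Notch values was not tested.

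The Notch genes were therefore also expressed per 1000 summed marker counts of the same library. Per 1000 smooth muscle marker counts, *Heyl* was 79.5 and 70.1 in controls against 76.4 and 69.4 in mutants, with overlap. Per 1000 pericyte marker counts, *Heyl* was 155 and 182 in controls against 167 and 152 in mutants, also with overlap. Per 1000 endothelial marker counts, it was 33.7 and 36.5 in controls against 42.6 and 37.7 in mutants, higher in both mutants. The position of *Heyl* thus depended on the marker list it was set against. *Notch4* per 1000 endothelial marker counts was 50.8 and 54.3 in controls against 53.1 and 53.3 in mutants, so that the mutants lay between the controls. Per 1000 smooth muscle marker counts *Notch4* was 120 and 104 in controls against 95.3 and 98.2 in mutants, and per 1000 pericyte marker counts 234 and 271 against 209 and 214, lower in both mutants where its normalized counts were higher in both. The smooth muscle and pericyte sums themselves were higher in both mutants, which lowers any gene divided by them. On this scale 6 of the 10 genes were lower in both mutants per smooth muscle marker count and 6 per pericyte marker count. The share of all genes on the same scale was not computed, so these counts are not a result about the Notch genes. *Notch2* was lower against 3 of the 4 lists. *Notch1* was lower in both mutants against each of the smooth muscle, pericyte, endothelial and arterial lists, for example 345 and 312 in controls against 234 and 219 in mutants per 1000 smooth muscle marker counts. *Notch1* and *Notch2* already had lower normalized counts in both mutants, and the smooth muscle, pericyte and endothelial sums were higher in both. Their lower position against these lists followed from that and is not separate evidence. *Notch3* overlapped between groups against all 4 lists, with 233 and 449 in controls against 403 and 280 in mutants per 1000 pericyte marker counts. These values were set side by side without a test.

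**Figure D4:**
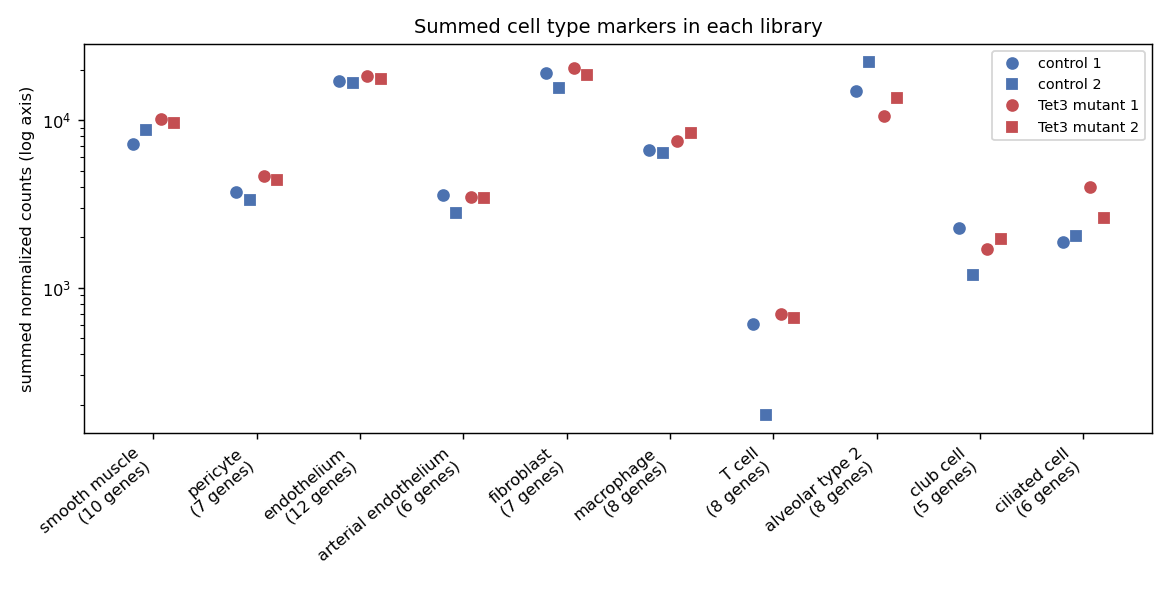
Summed normalized counts (log axis) of the marker genes of 10 cell types in each library, with blue for control, red for Tet3 mutant, circles for replicate 1 and squares for replicate 2. The smooth muscle, pericyte, endothelial, macrophage, T cell and ciliated cell sums are higher in both mutants, the alveolar type 2 sum is lower in both, and the T cell sum of control 2 (173) lies far below the other libraries (604 to 696).

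The other genes of the pathway were described from lists by role. Of 59 genes listed, 54 were tested. *Dlk1* and *Hes7* had a mean under 10, and *Dll3*, *Dlk2* and *Hes5* were not analysed here. Of the 54, 0 had a limma adjusted p under 0.05, and 3 had an unadjusted p under 0.05, with 1 higher and 2 lower in mutants. These shares stand beside 3.83% and 2.85% of all genes tested. The median log2 fold change of the 54 was -0.04, and 25 were above 0.

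Mastermind-like proteins bridge the Notch intracellular domain and histone acetyltransferases. *Maml3* had 1063 and 1357 normalized counts in controls against 776 and 825 in mutants. Both mutants were lower, with a log2 fold change of -0.59, a standard error of 0.15 and values from -0.76 to -0.41 with each library left out (limma unadjusted p = 0.0111, adjusted p = 0.681). In the nuclear activation complex as a whole, 3 of 8 genes were above 0. The mutants lay below the controls without overlap for 5 genes (19.5% of all genes tested) and above for 2 (19.6% of all genes), and the median was -0.10. *Rbpj*, the DNA-binding partner of all 4 receptors, was among those above, with 771 and 725 normalized counts in controls against 873 and 888 in mutants (0.24 on the log2 scale, limma unadjusted p = 0.0736, adjusted p = 0.681). *Rbpj* was named after its values were seen.

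Corepressors hold Notch targets silent when RBPJ is not bound by the intracellular domain. Of the 12 corepressor genes, 3 were above 0, 8 had both mutants below both controls and none had both above, with a median of -0.17 that was -0.063 without control 2, -0.10 without mutant 2 and -0.26 without control 1. Both mutants lay below both controls in 19.5% of all genes tested, and whether the corepressors stood apart from other genes was not tested. *Tle2*, a Groucho-type corepressor that HES proteins recruit, had 389 and 888 normalized counts in controls against 299 and 279 in mutants. The controls were far apart, and the log2 fold change of -1.02 (standard error 0.39, limma unadjusted p = 0.0471, adjusted p = 0.681) was -0.43 without control 2 and -1.62 without control 1.

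Regulators of receptor trafficking and turnover showed no common direction, with 8 of 13 above 0 and a median of 0.02. *Dtx4*, a Deltex ubiquitin ligase that acts on Notch receptors, had 675 and 713 normalized counts in controls against 984 and 889 in mutants. Both mutants were higher, at a log2 fold change of 0.43 ± 0.11 (SE, limma unadjusted p = 0.0124, adjusted p = 0.681), and the values with each library left out ran from 0.36 to 0.50.

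No gene of the remaining roles had an unadjusted limma p under 0.05, and the gene of highest mean normalized count stands for each. This mean is not corrected for exon length. Per kb of exon, another gene was highest among the glycosylating enzymes, the proteases and the other targets. Among other ligands, *Dll1* had 385 and 343 normalized counts in controls against 299 and 335 in mutants, lower in both mutants at a log2 fold change of -0.20 (limma adjusted p = 0.727). Among the enzymes that glycosylate the receptors, 4 of 5 were above 0, and *Pofut1*, which adds O-fucose, had 684 and 556 in controls against 651 and 690 in mutants. Among the proteases that cleave them, 5 of 10 were above 0, and *Furin*, which cuts the receptor during its maturation, had 1342 and 1534 in controls against 1242 and 1353 in mutants. Both *Pofut1* and *Furin* overlapped between groups. Among the other targets, 0 of 3 were above 0, and *Nrarp*, a feedback inhibitor that binds the intracellular domain, had 235 and 198 normalized counts in controls against 191 and 179 in mutants. *Nrarp* was lower in both mutants, with a log2 fold change of -0.22 (limma adjusted p = 0.739), whereas the targets *Hey2* and *Heyl* were higher in both, and neither direction passed the test.

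**Figure D5:**
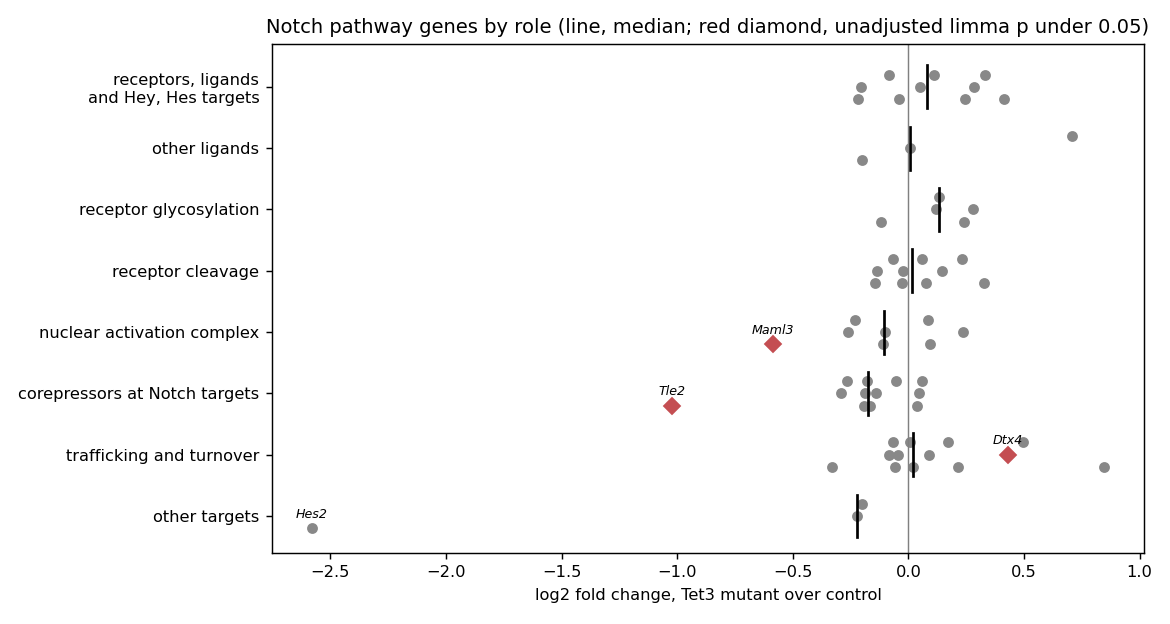
Log2 fold change, Tet3 mutant over control, of the 10 Notch genes (top row) and of the other tested genes of the pathway by role, with a point per gene, a line at each median and red diamonds for genes at a limma unadjusted p under 0.05. *Maml3* and *Tle2* lie to the left and *Dtx4* to the right, and the 10 Notch genes scatter from -0.22 to 0.41 around 0.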

How the data were processed

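RNA was measured in 4 libraries of sorted mouse lung SMCs, 2 Tet3 mutant and 2 control, grouped by the genotype in their labels. By the study's methods and the submitters' processing notes, ribosomal RNA was depleted, stranded libraries were read single-end, Trimmomatic 0.36 removed low-quality ends, STAR 2.6.0c placed reads on mm10 (GRCm38), and featureCounts (Subread 1.6.0) counted them over exons, with reads that fell on several genes or places left out. Whether strand was used in counting is not given in the sources used here, which leaves the values of overlapping genes on opposite strands uncertain. The deposited values are a score: counts that the authors scaled between samples with DESeq2 and rounded to whole numbers, so no count-based test was run. Deposited totals ran from 6805272 to 7164573. Scaling factors were estimated from gaps among low values, and totals divided by them estimate the reads assigned to genes.

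Values were compared on log2(value + 1), which understates changes of low genes, with limma 3.58.1 in R 4.3.3 (eBayes with a mean-variance trend, two-sided) over the 16659 genes whose mean reached 10, with the Benjamini-Hochberg adjustment over all of them and a threshold of 0.05. The fit was run on simulated data with changes of known size, to check the direction and size it returned. That simulation gave all libraries the same spread and set no library apart. It therefore does not cover the distance of control 2 seen here. The labels do not say whether replicates were separate animals. The study's legends for these RNA-seq data name 2 independent animals. Levels per kb used exon lengths from GENCODE on GRCm38, found for 99.8% of genes in the table. The genes, the pathway and marker lists and the tests were chosen with earlier results of these data known. All 10 Notch genes were named, with, from each other pathway list, the genes at an unadjusted p under 0.05 or, where there was none, the gene of highest mean normalized count. *Rbpj*, *Hes2*, *Dner* and *Ncstn* were named outside this rule, after their values were seen. The alternatives took a pseudocount of 0.5 or 8, a minimum mean of 1 or 50, no filter, TMM factors, equal library totals, no trend, the replicate number as a block, and each library left out.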

Additional observations from a re-analysis of the deposited data

How the results depend on the processing

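The 10 Notch genes were refitted under 13 alternatives. Of the 130 values, 124 kept their direction and their side of the threshold, and 6 turned direction, in *Jag1*, *Dll4*, *Hey1* and *Hes1*. With equal library totals, which moved the median of all genes from -0.0069 to 0.041, *Hes1* was 0.0095. Without control 2, *Jag1* was 0.22, *Dll4* -0.018, *Hey1* -0.063 and *Hes1* 0.10, and without mutant 1 *Dll4* was -0.18. With each library left out, *Jag1* ran from -0.63 to 0.22, *Dll4* from -0.18 to 0.29, *Hey1* from -0.063 to 0.73 and *Hes1* from -0.18 to 0.10. The cause was not tested. The median of the 10 genes was 0.029 to 0.19 with each library left out, and the highest value was without mutant 2. No Notch gene passed the adjusted threshold under any alternative. The count at an unadjusted limma p under 0.05 was 0, but 1 with equal library totals (*Heyl*), and 0 to 1 with each library left out (*Jag1* without control 1). In those fits the lone library was assumed to vary like the other group. Over all genes, 1 passed the adjusted threshold without the mean-variance trend and 0 otherwise. A mean of at least 1 and no filter kept the same 21462 genes. Same-numbered libraries deviated together only weakly (Pearson 0.13 over 16659 genes, 2 pairs), and the numbers are not shown to pair the samples. In a fit with replicate number as a block, 0 Notch genes were called, 0 had an unadjusted p under 0.05, their median log2 fold change was 0.08 and their smallest limma adjusted p was 0.584, while 1637 genes in all had an unadjusted p under 0.05. Depth limited the less abundant genes most, with a counting error of 9.66% for *Hey2* in its library of fewest reads against 1.82% for *Notch2*.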

Other observations

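*Hes2*, a HES family gene outside the 10, was the gene of the pathway lists that differed most in size, with 40 and 198 normalized counts in controls against 5 and 37 in mutants. Both mutants were below both controls, by 3 normalized counts at the nearest pair, and the log2 fold change was -2.58 ± 1.14 (SE, limma unadjusted p = 0.0725, adjusted p = 0.681). It was -3.91 without mutant 2 and -1.25 without mutant 1, and it was chosen after its values were seen, as were the next 2 genes. *Dner*, a ligand without a DSL domain, had 32 and 31 normalized counts in controls against 51 and 53 in mutants, higher in both mutants at a log2 fold change of 0.71 (limma unadjusted p = 0.0619, adjusted p = 0.681), with values from 0.68 to 0.73 when each library was left out. Its mean level was 8.73 per kb, below that of each of the 10 Notch genes. *Ncstn*, the nicastrin subunit of γ-secretase, had 754 and 771 normalized counts in controls against 869 and 923 in mutants (0.23 on the log2 scale, limma unadjusted p = 0.0765, adjusted p = 0.681).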
